A study of Mus musculus with 41 samples.

Results

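Krt5, Krt14, Krt8, Krt18, Trp63, Grhl3, Cldn4, Perp, Trim29 and Cdh1 are genes of the epidermis and of other epithelia. They were taken by name, with earlier results of these data known. They are 10 of the 21887 protein-coding genes of the RefSeq annotation, and shares over all genes are given beside their counts as description. For each, the percent of the promoter window and of the gene body that lay in deposited regions was measured for 6 histone modifications in sorted mouse chondrocytes, the cells of cartilage. None of the 10 is in the lists of chondrocyte and hypertrophic chondrocyte markers used below.

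The study mapped histone marks by chromatin immunoprecipitation and sequencing in chondrocytes isolated by flow cytometry, with low-input immunoprecipitation and library kits. The cells labelled proliferating chondrocytes (PC) came from cartilage of E13.5 embryos that carried Tg(Col2a1-cre)1Star with the Gt(ROSA)26Sor EYFP reporter, so Cre was driven by the promoter of the cartilage collagen gene Col2a1. The cells labelled hypertrophic chondrocytes (HC) came from E15.5 embryos that carried Tg(Col10a1-cre)1427Vdm with the same reporter, so Cre was driven by Col10a1, the collagen gene of enlarged chondrocytes. Cell type, age and transgene therefore differ together and cannot be told apart, and both groups carried a Cre transgene and the reporter. Each mark had 3 PC and 2 HC libraries, 30 in all, named below by cell type and the number in their titles. Whether the libraries of a group stem from different litters or pools is not stated, and p-values here cover the spread among libraries alone, some or all of which could be technical.

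Basal cells of stratified epithelia make the keratin pair Krt5 and Krt14, whereas simple epithelia and the embryonic periderm make Krt8 and Krt18. Trp63 encodes p63, the transcription factor that sets up stratified epithelium, and Grhl3 encodes a Grainyhead-like factor needed for the skin barrier. Cdh1 encodes E-cadherin, the adhesion protein of epithelial junctions, whose gene is kept silent in mesenchyme by Snail, Zeb and Twist factors. H3K4me3 and H3K9ac lie at active promoters, H3K27ac at active promoters and enhancers, H3K36me3 along transcribed genes, H3K27me3 at genes held by Polycomb, and H3K9me3 in heterochromatin. Promoters with H3K4me3 and H3K27me3 together are called bivalent and are usually silent or weakly transcribed.

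The promoter sequences show how the genes differ before any mark is counted. The RefSeq table for GRCm38.p6 gave 300 bases around the start of 6 of the 10 genes, and for 5 of them the listed start is the gene end used here. For Krt14 the listed start lies 1480 bp inside the gene and is not used. Cldn4 is 1.81 kb long, Krt18 3.81, Krt14 4.35, Krt5 5.84, Krt8 7.63, Perp 12, Trim29 25.4, Grhl3 31.7, Cdh1 66.9 and Trp63 208 kb. In GRCm38.p6, the assembly called mm10, Krt5 (chr15:101707069-101712905), Krt8 (chr15:101996711-102004342) and Krt18 (chr15:102028216-102032026) lie on 1 chromosome and Krt14 on another (chr11:100203162-100207510). Trp63 is at chr16:25683763-25892088 and Grhl3 at chr4:135541887-135573632. Cldn4 is at chr5:134945123-134946934 and Cdh1 at chr8:106603350-106670247. Perp is at chr10:18845071-18857073 and Trim29 at chr9:43310715-43336125. Promoter sequences are printed for a gene of each kind of pattern. Shown first is Krt5 (chr15:101712856-101713155, minus strand), whose promoter window held a region in only 2 of the 20 libraries of the 4 promoter marks. Below it are Grhl3 (chr4:135573583-135573882, minus strand), which carried H3K4me3 and H3K27me3 in every library, and Cldn4 (chr5:134946885-134947184, minus strand), which carried H3K4me3 in HC libraries only. Each runs 5′ to 3′ from 250 bases before the start to 50 after it, and capitals mark CG dinucleotides.
Krt5: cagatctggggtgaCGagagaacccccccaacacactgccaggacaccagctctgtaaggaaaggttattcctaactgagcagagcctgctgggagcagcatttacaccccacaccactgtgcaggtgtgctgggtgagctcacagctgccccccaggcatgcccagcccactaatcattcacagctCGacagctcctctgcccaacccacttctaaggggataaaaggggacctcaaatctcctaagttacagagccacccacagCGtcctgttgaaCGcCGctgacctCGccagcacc
Grhl3: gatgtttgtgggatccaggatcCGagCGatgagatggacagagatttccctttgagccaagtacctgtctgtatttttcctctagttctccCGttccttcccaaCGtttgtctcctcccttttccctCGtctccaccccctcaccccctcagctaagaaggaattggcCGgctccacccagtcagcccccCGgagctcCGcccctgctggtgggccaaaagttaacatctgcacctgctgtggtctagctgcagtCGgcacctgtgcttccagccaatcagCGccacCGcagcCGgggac
Cldn4: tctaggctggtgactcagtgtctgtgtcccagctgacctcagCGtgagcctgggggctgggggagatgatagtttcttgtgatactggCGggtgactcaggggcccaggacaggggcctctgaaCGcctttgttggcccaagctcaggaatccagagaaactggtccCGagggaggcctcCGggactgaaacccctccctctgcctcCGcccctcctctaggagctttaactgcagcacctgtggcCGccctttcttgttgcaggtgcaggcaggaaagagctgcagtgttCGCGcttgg
Krt5 holds 6 CG dinucleotides, Grhl3 12 and Cldn4 9, against a median of 13 over 21263 promoters of 17492 protein-coding genes. Their ratios of observed to expected CG were 0.251, 0.492 and 0.324. Krt8 had a ratio of 0.238 and Krt18 of 0.603, beside a median of 0.567 for all promoters. CAGGTG, the E-box read by Snail and Zeb factors, was searched on both strands and occurred at least once in all 5 promoters, with 2 copies each in Grhl3 and Cldn4. It occurs in 19.7% of all promoters of this length. The Grainyhead-like site AACCGGTT was in none of the 5 and is in 0.179% of all promoters. TATAAA was found in Krt8 alone of the 5, as 2 overlapping matches on opposite strands, and is in 12.6% of all promoters.

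Libraries differed in how much had been called and in how well they matched their labels. For H3K27ac, HC replicate 5 covered 46.1 Mb and the other 4 libraries 70.2 to 98.4 Mb. For H3K4me3, PC replicate 7 covered 30.3 Mb and the others 32.1 to 46.7 Mb. Regions were longer in HC, with a median of 1400 to 1600 bp against 1000 to 1200 bp in PC for H3K4me3, and 1000 bp against 400 to 600 bp for H3K9ac. The depth of sequencing is unknown, and 0% means that no region is listed in the window, not that the mark is absent. The chondrocyte markers were covered in both groups, with a mean over 10 promoters of 73.0 to 75.9% in PC and 43.8 to 54.4% in HC for H3K27ac. Over the 10 hypertrophic markers the mean went against the HC label, at 22.2 to 31.4% in PC and 5.00 to 9.12% in HC for H3K27ac. Of the 6 that could be tested, HC lay below PC for 3, against 12.5% of all genes tested, and above for 0, against 6.48%. The promoter of Col2a1, the defining cartilage collagen, went against the PC label, with H3K4me3 over 5.00, 10 and 10% in PC and 76.9 and 81.9% in HC, and H3K27ac over 0% in all PC libraries and 55.0 and 75.0% in HC. Along its body H3K36me3 lay over 67.3 to 86.5% in PC and 67.3 to 79.7% in HC. The acetyl marks along the Col2a1 body went with the PC label: every HC library lay below every PC library for H3K9ac and for H3K27ac. Mmp13, Spp1 and Ibsp had no H3K27ac region at the promoter in any library. Col10a1 itself had H3K27ac over 5.00, 0 and 0% of its promoter in PC and 30 and 0% in HC, and H3K27me3 over 0% in PC and 100 and 99.5% in HC. Along its body H3K36me3 covered 60.3, 0 and 49.0% in PC and 88.7 and 77.5% in HC. Every HC library also lay above every PC library for H3K9ac at the Col10a1 promoter and for H3K4me3, H3K9ac and H3K27ac along its body. The same held for H3K9me3 at the promoter and along the body. Col2a1 and Col10a1 are also the genes that drove Cre in the PC and HC transgenes, so at these genes cell label and transgene cannot be told apart.

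H3K4me3 separated the genes into 3 sets. Promoter windows reach 2 kb to each side of the start, and the values that follow are covered percents of that window in PC replicates 1, 2 and 7, then in HC replicates 2 and 5. Cldn4, a tight junction protein of simple epithelia, had 0, 0 and 0% in PC and 45.0 and 40% in HC. Trim29, a tripartite-motif protein abundant in squamous epithelia, had 0, 0 and 0% in PC and 47.9 and 42.9% in HC. At both genes every HC library had a region and no PC library did. The Trim29 start was itself taken as the gene end that carried H3K4me3, so for this gene the mark helped to place the window. By a minimum of 200 bp in every library of 1 cell type and none of the other, these were 2 of only 24 genes with HC-only H3K4me3, or 0.11% of all 21887.

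Perp and Grhl3 carried H3K4me3 in every library, over more of the window in HC. Perp, a desmosome component that p63 activates, had 45.0, 40 and 25% in PC and 66.8 and 61.8% in HC. Grhl3 had 45.0, 45.0 and 35% in PC and 59.2% in each HC library. In both genes the lowest HC library lay above the highest PC library. Cdh1 had 40, 45.0 and 30% in PC and 55.0 and 35% in HC, so its groups overlapped.

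The simple keratins did not follow. Krt8 had 25, 30 and 20% in PC and 25 and 20% in HC, nearly the same range. Krt18 ran from 10% in PC replicate 7 to 54.6% in PC replicate 2, with 25 and 10% in HC. The basal keratins had no region in PC, and in HC only replicate 2 listed 1, over 40% of the Krt5 window and 27.3% of the Krt14 window. Both Krt5 and Krt14 were at 0% in HC replicate 5, so each rests on 1 library. Trp63 had 0% at both gene ends in all 5 libraries.

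Of the 10 genes, 7 passed the filter for testing, a region in at least 2 libraries, and Cldn4 and Trim29 passed only through HC. All HC libraries lay above all PC libraries for 4 of the 7 (Grhl3, Cldn4, Perp and Trim29), against 3.04% of 14032 genes tested, and below for 0, against 4.03%. With limma over all genes and Benjamini-Hochberg adjustment, 0 of the 7 were called at 0.05, while 4 had an unadjusted p under 0.05. Calls were rare everywhere, at 0.00713% of genes, which is Col2a1 alone. The difference for Cldn4 was 42.5 percentage points (SE 4.67, limma adjusted p = 0.0685) and that for Trim29 was 45.4 (SE 4.69, limma adjusted p = 0.0655). For Perp it was 27.6 points (SE 7.17) and for Grhl3 17.6 (SE 5.93), both at a limma adjusted p of 1. With the lists cut to equal covered length, HC lay above PC for 5 genes, Cdh1 added. All genes shifted too: at an unadjusted limma p under 0.05, 206 were higher and 133 lower in HC of 13009 tested. In the main setting these counts were 151 and 186. The share of all genes without overlap at equal length is not given here. An exact permutation of 3 against 2 libraries cannot go below p = 0.1.

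Over the gene body, as at the promoter, Cldn4 and Trim29 entered the test only through their HC values, so their p-values are no added support. H3K4me3 covered 84.7% of the Cldn4 body in each HC library and 0% in PC (limma adjusted p = 0.00428). The Trim29 body had 11.8 and 9.45% in HC and 0% in PC (limma adjusted p = 0.0381). Only 0.0401% of 14972 genes were called in this window. Every HC library lay above every PC library for the bodies of Grhl3, Cldn4, Perp and Trim29, 4 of 8 genes that could be tested, and for 3.02% of all genes, and 2 of these 4 were the genes that entered through HC alone. At Grhl3 the difference in the promoter window depended on its width: with 1 kb to each side it was -3.33 points.

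The regions show where in each gene the coverage lay. At Cldn4, H3K4me3 ran from 0.27 kb before the start to 1.53 kb after it in HC replicate 2. It began 0.07 kb before the start and had the same far edge in HC replicate 5. At Trim29 a block ran from 0.08 to 3.08 kb past the start in HC replicate 2, and HC replicate 5 had pieces from 0.08 to 0.48 and from 0.68 to 2.68 kb. At Perp the HC regions kept the upstream edge of PC replicates 1 and 2, 0.67 kb before the start, and reached 2.53 kb into the gene, where the PC regions ended at 1.13 kb or less.

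**Figure D1:**
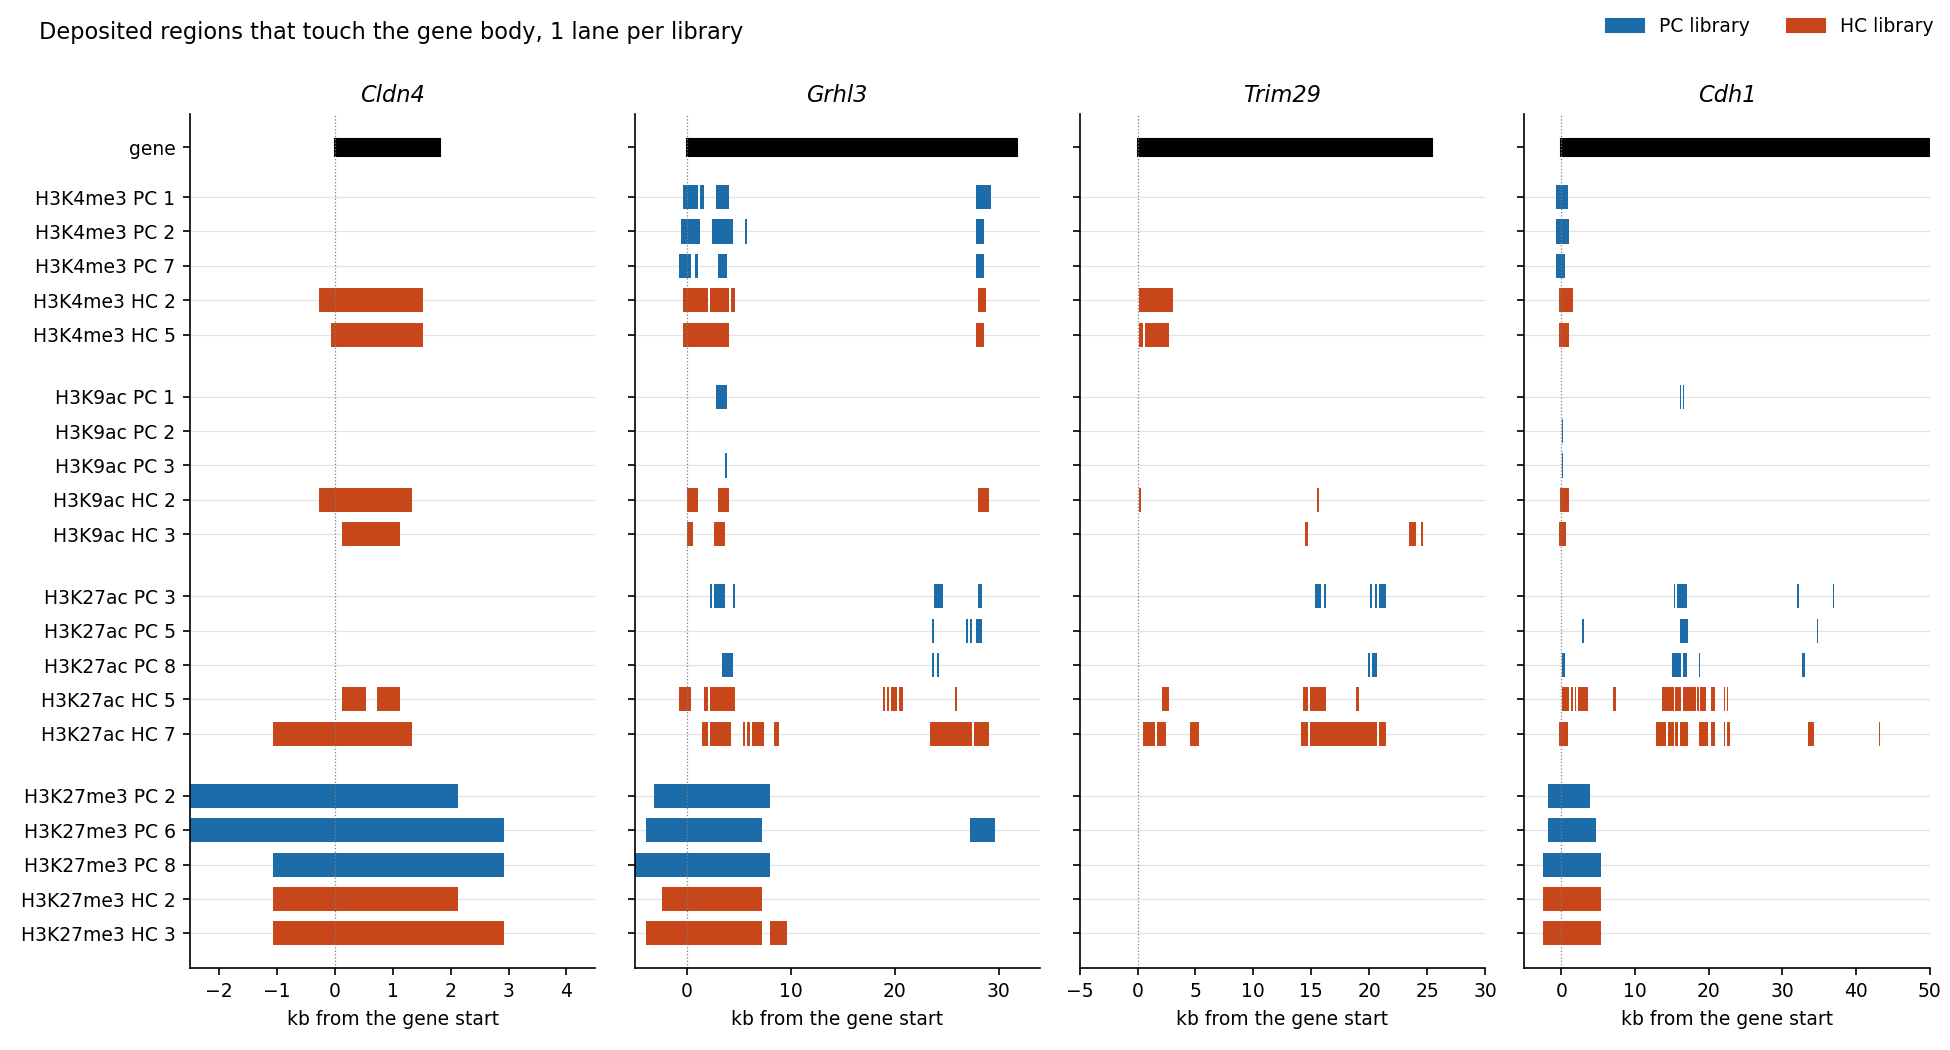
Deposited regions of 4 marks that touch the gene body of Cldn4, Grhl3, Trim29 and Cdh1, 1 lane per library (blue PC, orange HC), with the distance from the gene start in kb on the x axis and the gene as a black bar. Cldn4 and Trim29 have H3K4me3 blocks in the HC lanes only, Grhl3, Cldn4 and Cdh1 have a broad H3K27me3 block over the start in all 5 lanes, Trim29 has none, and the Cdh1 panel stops before the end of the gene.

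Trp63 has an internal start, known to give the short isoform of basal epidermis, which the windows at the gene ends do not hold. Inside the gene body, HC replicate 2 had H3K4me3 regions from 118.24 to 119.04 and from 119.24 to 120.24 kb past the listed start. HC replicate 5 had separate H3K27ac pieces between 119.44 and 121.44 kb. No other library of these 2 marks listed a region there. H3K27ac regions near 63 to 65 kb of Trp63 were in both cell types, in PC replicates 3 and 8 and in both HC libraries.

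H3K9ac, an acetylation of active promoters, was present at fewer of the genes. Values are for PC replicates 1, 2 and 3, then HC replicates 2 and 3. Perp had 25, 5.00 and 0% in PC and 50% in each HC library. Cldn4 had 0% in all 3 PC libraries and 40 and 25% in HC. Grhl3 likewise had 0% in PC, with 25 and 15% in HC. Cdh1 had 0, 5.00 and 10% in PC and 30 and 25% in HC. At these 4 genes the groups did not overlap.

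Krt8 had 20, 35 and 0% in PC and 0% in both HC libraries. Krt18 had 25, 5.00 and 0% in PC and 15 and 0% in HC. Krt5, Krt14 and Trp63 had no H3K9ac region at the promoter in any library, and Trim29 had 5.00% in HC replicate 2 alone.

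For H3K9ac 6 of the 10 genes could be tested, Grhl3 and Cldn4 only through their HC values. HC lay above PC for 4 of the 6, against 4.42% of 13344 genes, and below for 0, against 10.1%. limma called 0 of the 6 and 0.00749% of all genes. An unadjusted limma p under 0.05 was met by 4 of the 6, Grhl3 and Cldn4 among them. Over all genes it was met by 251 higher and 503 lower in HC. The differences were 40 points for Perp (SE 8.32, limma adjusted p = 0.435), 32.5 for Cldn4 (SE 6.08, 0.389), 22.5 for Cdh1 (SE 5.64, 0.507) and 20 for Grhl3 (SE 5.18, 0.508). Grhl3 and Cldn4 were HC-only by the 200 bp rule, as were 0.297% of all genes.

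H3K27ac also lay higher in HC for Cldn4, Cdh1 and Grhl3. Values are for PC replicates 3, 5 and 8, then HC replicates 5 and 7. Cldn4 had 0, 0 and 5.00% in PC and 30 and 61.7% in HC. Cdh1 had 0, 5.00 and 10% in PC and 48.7 and 30% in HC. Grhl3 had 0% in PC and 44.2 and 14.2% in HC. Both HC libraries were above every PC library at all 3 genes.

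Elsewhere the HC libraries parted from each other. Perp had 40, 25 and 15% in PC and 30 and 50% in HC. Trim29 had 0% in PC, 0% in HC replicate 5 and 32.9% in HC replicate 7. Krt8 (50, 25 and 33.5% in PC) and Krt18 (40, 4.62 and 49.6% in PC) were at 0% in HC replicate 5 and at 40 and 50% in HC replicate 7. Without HC replicate 5, 7 genes lay above PC in place of 3, and without HC replicate 7, Krt8 and Krt18 lay below. Each of these counts rests on the HC library that was left in, and the share of all genes is not given here. The median difference over all genes was 1.67 points without HC replicate 5 and -6.67 without HC replicate 7, against -2.5 with both. Trp63 had 0, 0 and 5.00% in PC and 5.00 and 17.5% in HC, Krt5 had 5.00% in PC replicate 3 alone, and Krt14 had none.

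HC lay above PC for 3 of 7 genes tested for H3K27ac, against 6.48% of 13740, and below for 0, against 12.5%. Grhl3 could be tested only through its HC values. limma called 0 of the 7 and 0.0218% of all genes, and 3 of the 7 had an unadjusted p under 0.05. The differences were 44.2 points for Cldn4 (SE 10.2, limma adjusted p = 0.38), 34.4 for Cdh1 (SE 8.22, 0.393) and 29.2 for Grhl3 (SE 9.43, 0.485). Grhl3 was HC-only, as were 0.352% of genes. At equal covered length HC lay above PC for 2 genes, Cldn4 and Perp, and no longer for Grhl3 or Cdh1. Over all genes, 291 were then higher and 397 lower in HC at an unadjusted limma p under 0.05, against 379 and 760 in the main setting. The share of all genes without overlap at equal covered length is not given here.

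Within the gene bodies, H3K27ac also covered more of 4 genes in HC. Cdh1, a gene of 66.9 kb, had 2.99, 2.39 and 4.18% of its body covered in PC and 14.3 and 12% in HC, a difference of 10 points (SE 1.44, limma adjusted p = 0.241). Its regions between about 13 and 23 kb past the start numbered more in HC, while a block near 16 kb was in all 5 libraries. Grhl3 had 8.19, 3.78 and 4.41% in PC and 15.2 and 31.5% in HC, and Trim29 had 7.08, 0 and 2.36% in PC and 10.2 and 37.8% in HC. Cldn4 had 0% in PC and 44.2 and 73.6% in HC, and entered the test through HC alone. Non-overlap with HC higher was met by 6.95% of 15088 gene bodies, and limma called 0.0331%, none of them among the 10 genes.

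**Figure D2:**
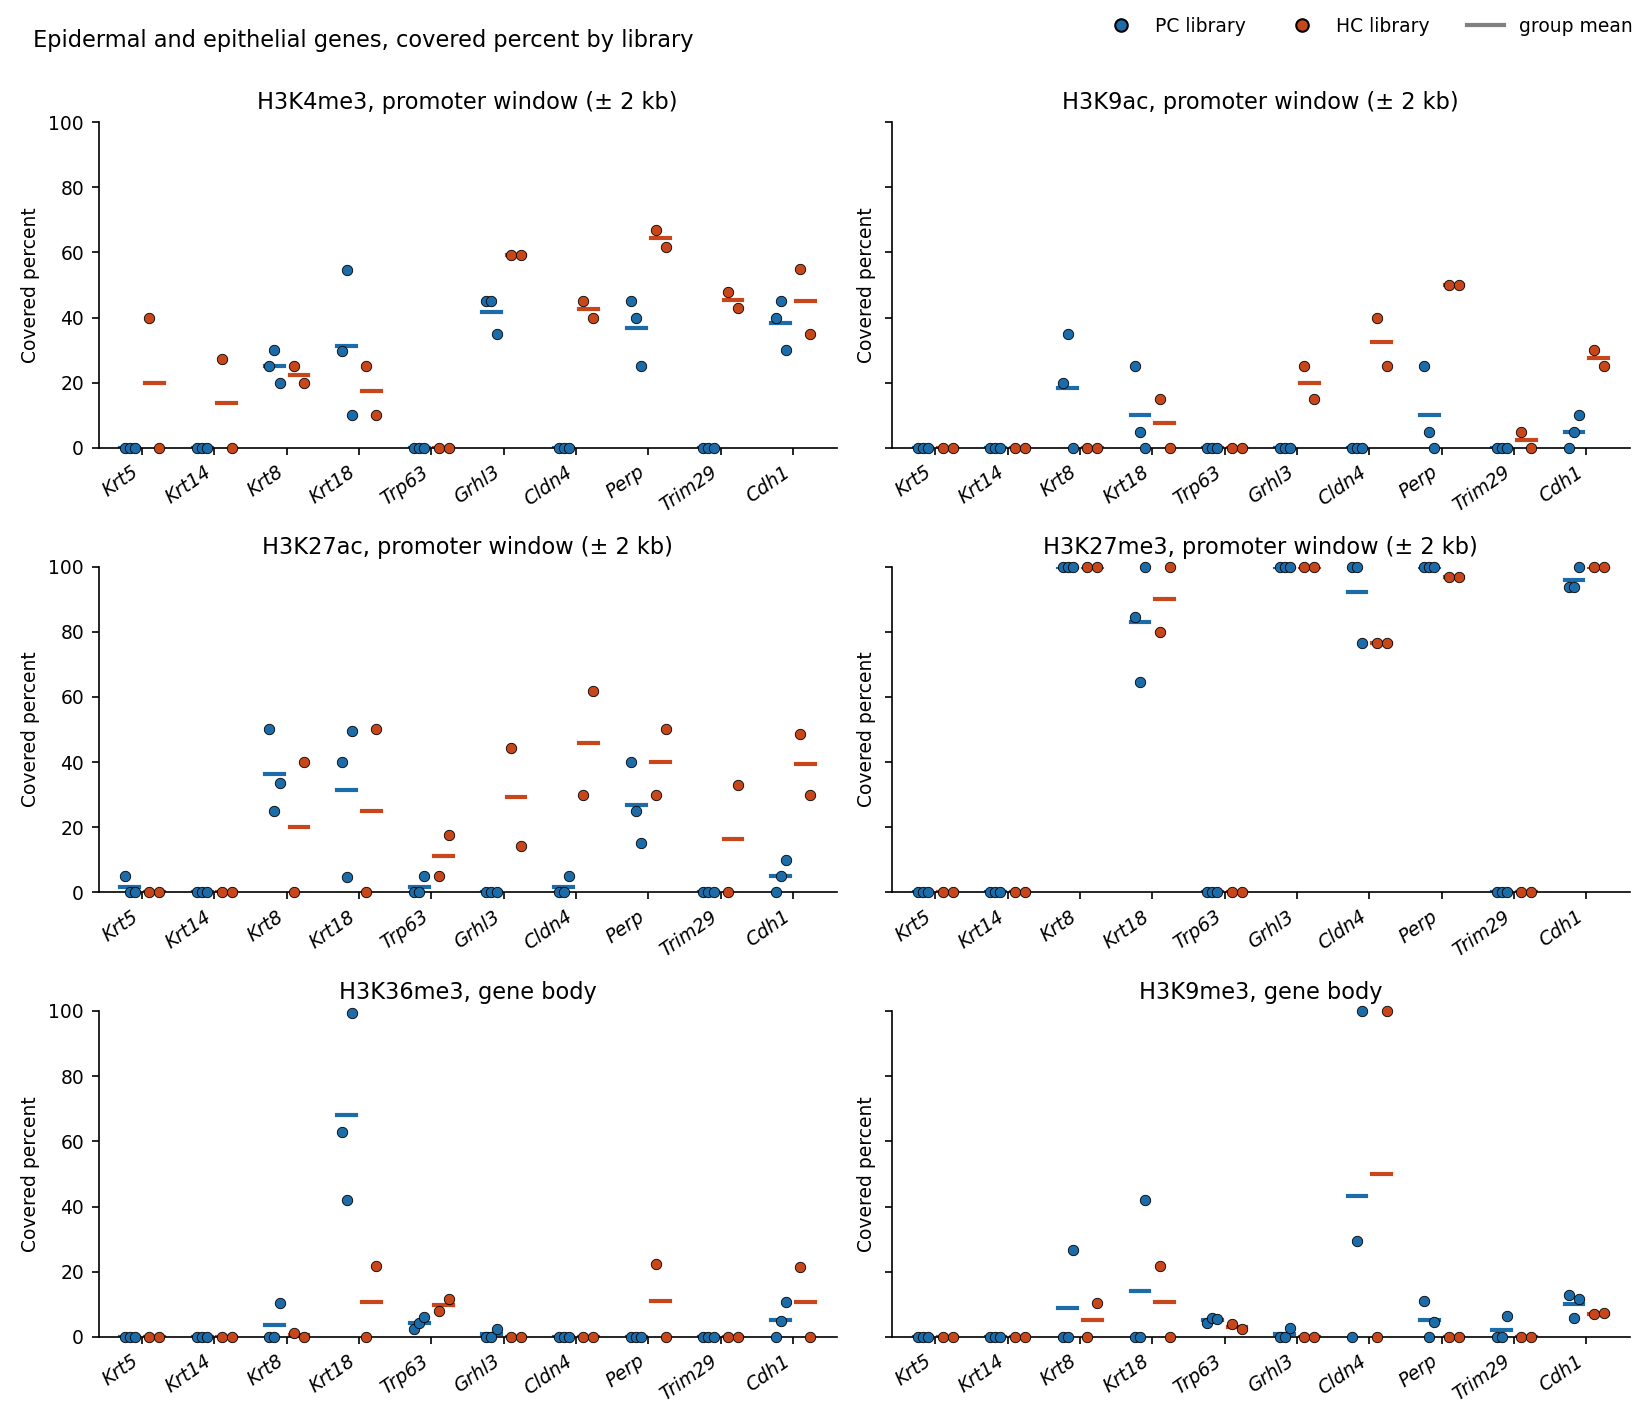
Covered percent (y axis) of the promoter window for H3K4me3, H3K9ac, H3K27ac and H3K27me3 and, for H3K36me3 and H3K9me3, of the gene body, with the 10 genes on the x axis, a point per library (blue PC, orange HC) and a bar at each group mean. Cldn4 and Trim29 lie at 0% in PC and between 40 and 47.9% in HC for H3K4me3, and H3K27me3 is either at 64.6% or more or at 0%.

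H3K27me3 split the genes cleanly and alike in the 2 cell types. Values are for PC replicates 2, 6 and 8, then HC replicates 2 and 3. Krt8 and Grhl3 had 100% in all 5 libraries. Cdh1 had 93.7, 93.7 and 100% in PC and 100% in HC. Krt18 had 84.6, 64.6 and 100% in PC and 80 and 100% in HC. Cldn4 had 100, 100 and 76.7% in PC and 76.7% in each HC library. These 5 promoters, with Perp, were covered over most of the window in every library, and their groups overlapped except at Perp.

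Krt5, Krt14, Trp63 and Trim29 had 0% of the promoter under H3K27me3 in all 5 libraries. All 4 also lacked H3K4me3 in PC. Perp had 100% in all 3 PC libraries and 96.8% in both HC libraries. limma called this difference of -3.25 points, at an adjusted p of 1.98e-16, and neither group had any spread. The HC regions began 1.87 kb before the start and the PC regions 2.67 or 3.47 kb before it, on a grid of 800 bp, and the difference was 0 in a window of 1 kb to each side. limma called 4.05% of the 5039 genes tested for this mark. The groups did not overlap for 1 of the 6 genes tested, Perp, against 20.5% of all, and HC lay below PC for that 1, against 5.02%.

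In every PC library H3K4me3 and H3K27me3 both covered at least 200 bp at 5 of 10 genes (Krt8, Krt18, Grhl3, Perp and Cdh1), against 13.3% of all genes. In every HC library it was 6 of 10, with Cldn4 added, against 15.3%. Cldn4 carried H3K27me3 without H3K4me3 in PC, a state of 0.987% of all genes. Trim29 went from neither mark in PC to H3K4me3 alone in HC. Trp63 had neither mark at its gene ends in any library, and Krt5 and Krt14 had neither except the H3K4me3 of HC replicate 2. Of 60 other epithelial genes listed for comparison, 31 had both marks in PC and 34 in HC. In bulk chromatin, marks on the same DNA cannot be told apart from marks on different cells of the sample, and a window covered in part of the cells cannot be told apart from fewer cells of another type.

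**Figure D3:**
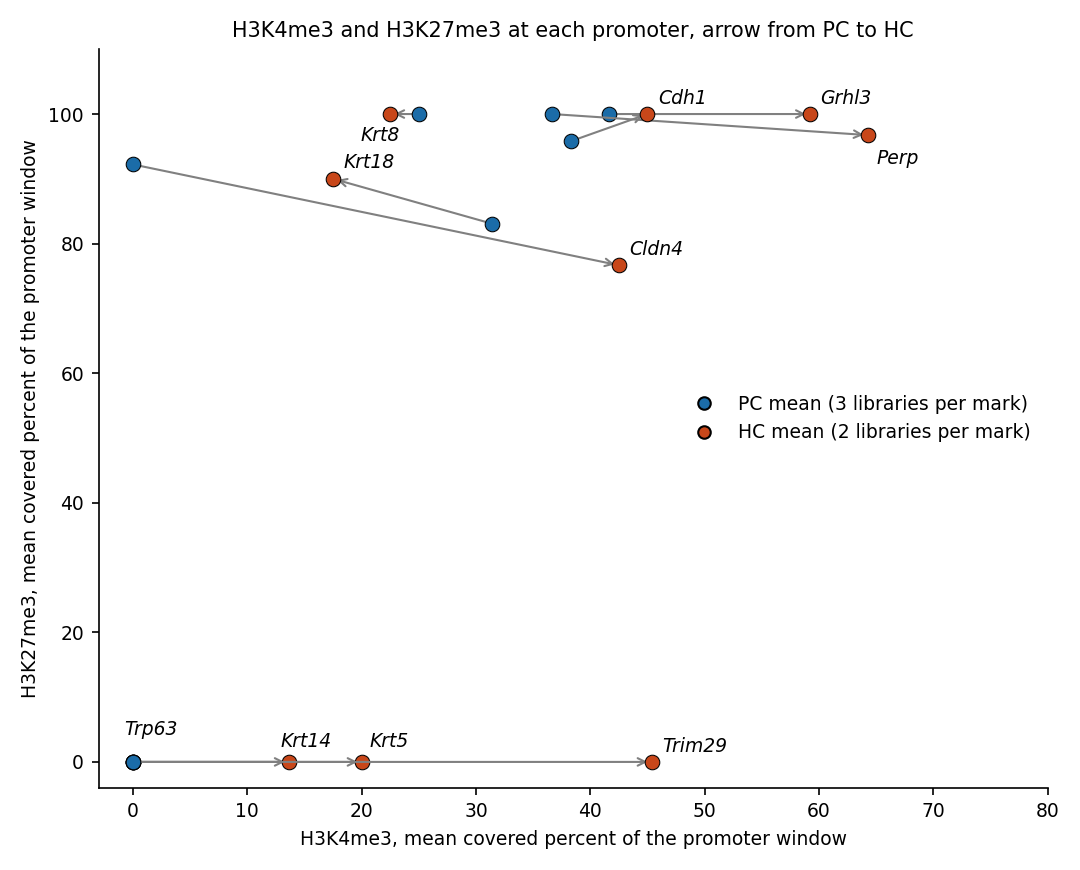
Mean covered percent of the promoter window for H3K4me3 (x axis) and H3K27me3 (y axis) for the 10 genes, with an arrow from the PC mean (blue, 3 libraries per mark) to the HC mean (orange, 2 libraries per mark). Krt8, Krt18, Grhl3, Cldn4, Perp and Cdh1 lie at H3K27me3 means of 76.7% or more, and Krt5, Krt14, Trp63 and Trim29 lie at 0%.

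H3K36me3, laid down along transcribed genes, was sparse on the 10 gene bodies outside Krt18. Values are for PC replicates 4, 5 and 6, then HC replicates 5 and 7. Krt18 had 63.0, 42.0 and 99.3% in PC and 0 and 21.7% in HC, a difference of -57.3 points (SE 18.0, limma adjusted p = 0.583). It was the only one of the 10 with at least 25% of the body covered in every PC library and no HC library, a pattern of 0.886% of all genes. Krt8, its pairing partner, had 10.5% in PC replicate 6 and 1.18% or less in the other 4 libraries.

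Krt5, Krt14, Cldn4 and Trim29 had no H3K36me3 on the gene body in any library. In the promoter window Cldn4 had H3K36me3 over 40% in HC replicate 7 and 0% in the other 4 libraries. Perp had 22.3% in HC replicate 5 alone. Cdh1 had 0, 4.78 and 10.8% in PC and 21.5 and 0% in HC. Trp63 had 2.30, 4.22 and 6.14% in PC and 8.06 and 11.5% in HC, and its groups did not overlap. Only 4 of the 10 genes could be tested. HC lay above PC for 1, Trp63, against 8.19% of 13688 genes, and below for 1, Krt18, against 9% of them. limma called 0 of the 4 and 0% of all genes, with 381 genes higher and 481 lower in HC at an unadjusted p under 0.05.

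H3K9me3 was uneven between libraries of the same cell type. Values are for PC replicates 2, 3 and 6, then HC replicates 2 and 5. Cldn4 had 0, 29.5 and 100% of its body covered in PC and 0 and 100% in HC, so libraries of both groups span the whole scale. Cdh1 had 12.9, 5.76 and 11.7% in PC and 6.95 and 7.17% in HC. At the Cdh1 promoter the mark covered 73.7% of the window in each PC library and 60 and 33.7% in HC. Trp63 had 4.22, 5.76 and 5.38% in PC and 3.84 and 2.30% in HC.

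HC lay below PC for 1 of the 6 bodies tested for H3K9me3, Trp63, against 24.1% of 10547 genes, a share that the 10 genes do not exceed. HC lay above for 0, against 2.43%. limma called 0 of the 6 and 0% of all genes, with 101 genes higher and 633 lower in HC at an unadjusted p under 0.05. Krt5 and Krt14 had 0% of the body covered in every library.

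The authors also deposited intersected lists, 1 per mark and cell type. In them a region lay in the promoter window of 5 of the 10 genes in PC and 7 in HC for H3K4me3, of 0 and 4 for H3K9ac, and of 1 and 5 for H3K27ac. For H3K27me3 the counts were 6 and 6. The authors intersected 3 libraries in PC and 2 in HC, and the overlap they required is not stated. Shares over all genes in these lists are not given here, so the PC and HC counts have no baseline.

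Genes with the most similar promoter pattern were sought over the 20 libraries of the 4 promoter marks, by the mean absolute difference in covered percent. For Cdh1 the nearest gene was Ripk4, a kinase gene of epidermal differentiation, at 4.74 points, followed by Grhl3 at 5.81. For Krt5 it was Krt14 at 0.886 points and then Krt15 at 1.25, but Krt5 had a region in only 2 of the 20 libraries, so these small values mostly compare zeros. Nearest genes elsewhere included Pdlim2 for Krt8 (6.82 points) and Krt18 (9.5), Pdlim1 for Perp (7.27), Tnxb for Cldn4 (8.15) and Aldh1l1 with Gimap9 for Trim29 (4.43 each). Krt14 and Trp63 had a region in 1 and 3 of the 20 libraries, so their likeness to other genes also mostly compares zeros.

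Other epithelial genes were followed in 60 further genes, of which 44 could be tested for H3K4me3, 37 for H3K9ac and 40 for H3K27ac. In promoter windows HC lay above PC for 8, 9 and 10 of them, against 3.04, 4.42 and 6.48% of all genes tested. It lay below for 0, 1 and 3, against 4.03, 10.1 and 12.5%. At promoters limma called 0 of these epithelial genes for the 3 marks. Over gene bodies it called 1 of 47 for H3K27ac, lower in HC, against 0.0331% of all genes. For H3K4me3 and H3K9ac it called 0 over gene bodies. For H3K4me3 the greatest differences without overlap were at Tfap2a, a transcription factor of surface ectoderm, Sfn, which encodes stratifin, and Dsc3, a desmosomal cadherin. Tfap2a had 5.00, 9.07 and 0% in PC and 54.1 and 40% in HC (limma adjusted p = 0.152). Sfn had 35.8, 20.8 and 5.82% in PC and 55.8 and 45.8% in HC, and Dsc3 had 20, 25 and 15% in PC and 40% in each HC library.

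For H3K9ac the leading genes included Esrp1, an epithelial splicing regulator, and Pkp1, a desmosomal plaque protein. Esrp1 had 0, 15.45 and 0% in PC and 40 and 84.6% in HC (limma adjusted p = 0.483). Pkp1 had 0% in PC and 15 and 30% in HC. For H3K27ac the greatest difference went the other way. Calml3, a calmodulin-like gene of keratinocyte differentiation, had 96.3, 90.6 and 88.9% in PC and 0 and 38.9% in HC (limma adjusted p = 0.206). Tfap2a had 0% in PC and 65.0 and 9.07% in HC.

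Counts differed by family, and the families were not tested against each other. Over all genes tested, HC lay above PC for 3.04% for H3K4me3, 4.42% for H3K9ac and 6.48% for H3K27ac. Among 12 transcription factors and splicing regulators, HC lay above PC for 3 of 11 tested for H3K4me3, 2 of 9 for H3K9ac and 4 of 10 for H3K27ac. Among 16 junction and surface genes it lay above for 2 of 15, 5 of 14 and 3 of 13 tested. Of 10 other keratins it lay above for 0 in each mark, with 4, 1 and 3 of them testable. Among 7 basement membrane and hemidesmosome genes it lay above for 2, 0 and 0, with 5 testable in each mark. Among 6 proteases, inhibitors and others it lay above for 1 of 5, 1 of 6 and 2 of 5. Among 9 cornified envelope genes it lay above for 0 of 4, 1 of 2 and 1 of 4. HC lay below PC for 1 basement membrane gene in H3K9ac. In H3K27ac it lay below for 1 basement membrane, 1 cornified envelope and 1 transcription factor or splicing gene. For H3K27me3, Krt10, a keratin of differentiating epidermis, rose from 0% in PC to 46.2% in both HC libraries (limma adjusted p = 0.0319). It was the 1 promoter call among the 40 tested for this mark, against 4.05% of all genes tested. Krt10 entered the test only through HC and had no spread in either group. Over gene bodies limma called 1 of 40 for H3K27me3, also higher in HC, against 223 of all 6265 genes tested.

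The mesenchymal repressors of epithelial genes were covered by active marks in both cell types. The 6 genes (Snai1, Snai2, Zeb1, Zeb2, Twist1 and Twist2) all had H3K4me3, H3K9ac and H3K27ac in every library. Twist1 rose from 0% to 100% for H3K27me3 in HC (limma adjusted p = 0.0152) while its H3K4me3 was 97.8% ± 1.88 (SD, n = 3) in PC and 100% in both HC libraries. Its H3K27me3 values likewise entered through HC alone and had no spread. The other 5 had no call in any of the 6 marks. Without a call, Zeb2 lay above PC for H3K9ac and H3K27ac, Zeb1 and Twist2 lay below for these marks, and Snai2 lay below for H3K4me3. For H3K27me3, with 4 of the 6 genes tested, Twist2 also lay above PC without a call, as did 781 of 5039 genes, called or not. For H3K36me3 bodies, Zeb1 and Zeb2 lay above and Twist1 and Twist2 below.

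Marker genes of other tissues moved in the same libraries, and their part in the results above was not tested. Summed over 10 muscle promoters, H3K9ac covered 0 to 6.81 percent in PC and 86.8 to 122 in HC. The 3 muscle genes that could be tested, Cdh15, Pax7 and Des, named after their values were seen, all lay above PC and were tested only through HC, while Myod1, Myf5, Acta1, Ttn and Ckm had 0% in every library. For H3K27ac the muscle sum was 24.7 to 105 in PC and 175 to 275 in HC, with 2 of 7 genes above. For H3K4me3 it was 45.1 to 152 and 136 to 235, with 2 of 8 above. Myf6 fell for H3K27me3, from 89.4% ± 4.07 (SD, n = 3) in PC to 0% in HC (limma adjusted p = 0.0193). Myf6 could be tested only through its PC values. It was the 1 call among 7 muscle genes tested for this mark, against 4.05% of all genes called in either direction. HC lay below PC for that 1 gene, against 5.02% of all genes tested.

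The other marker lists overlapped more. Summed over 10 endothelial promoters, H3K27ac covered 130 to 190 percent in PC and 165 to 205 in HC, with 2 of 7 genes above PC and 1 below, and Tie1 and Emcn at 0% in every library. Endothelial H3K9ac sums were 100 to 137 and 117 to 130, and H3K4me3 sums 172 to 294 and 161 to 279. For blood, H3K27ac sums were 90.0 to 108 in PC and 45.0 to 180 in HC, with 0 of 4 genes above. Ptprc, the pan-leukocyte gene, had no H3K4me3 or H3K27ac region at the promoter in any library, and had H3K9ac over 10% in HC replicate 3 and 0% in the other 4. Blood H3K4me3 sums were 50 to 69.5 in PC and 94.5 to 95.0 in HC, with 2 of 4 above, Laptm5 and Runx1, named after their values were seen and tested only through HC. Blood H3K9ac sums were 45.0 to 85.0 and 60 to 72.5. For the 10 neural and glial genes, 0 lay above PC in any of the 3 marks, and sums were 288 to 474 and 275 to 370 for H3K4me3, 85.0 to 185 and 45.0 to 50 for H3K9ac, and 119 to 170 and 35 to 127 for H3K27ac.

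The 10 epidermal and epithelial genes themselves summed to 120 to 215 percent in PC and 269 to 391 in HC for H3K4me3, 10 to 70.0 and 115 to 165 for H3K9ac, and 59.6 to 135 and 158 to 296 for H3K27ac. In each of these 3 marks the lowest HC library was above the highest PC library, as it was for the muscle list in H3K9ac and H3K27ac and the blood list in H3K4me3. The 60 other epithelial genes were higher in every HC library for H3K9ac and H3K27ac, and overlapped for H3K4me3. In HC the basal genes Krt5 and Krt14 were at 0% for H3K9ac and H3K27ac, and for H3K4me3 at 40 and 27.3% in replicate 2 and 0% in replicate 5.

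**Figure D4:**
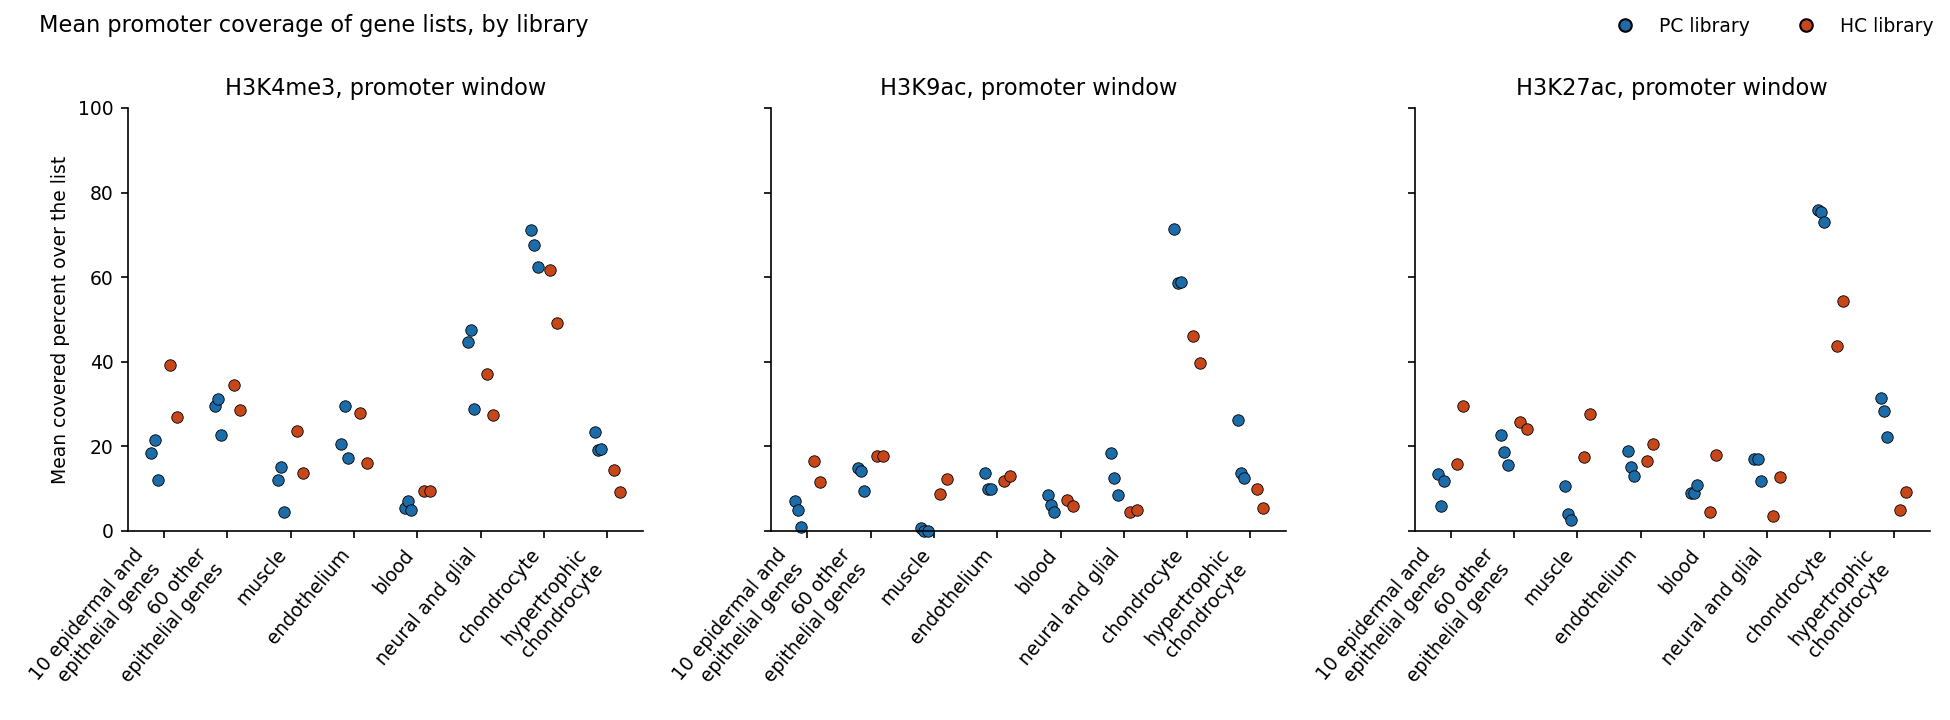
Mean covered percent of the promoter window over each gene list (y axis) by library (blue PC, orange HC) for H3K4me3, H3K9ac and H3K27ac, with the lists on the x axis. The 10 epidermal and epithelial genes lie higher in HC in all 3 panels, muscle genes lie higher in HC for H3K9ac and H3K27ac, and the hypertrophic chondrocyte list lies lower in HC in all 3.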

How the data were processed

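Regions of 6 histone marks in 30 libraries (3 PC and 2 HC per mark) were used, and 11 IgG samples were not analysed here. The authors deposited region coordinates in mm10 with no score, count or height. FastQC and Picard are named in the submitters' processing notes, with mm10 as the build. Which aligner and region caller were run is not given in the sources used here, and depth is unknown. Region edges lie on a grid of 200 bp (H3K4me3, H3K9ac, H3K27ac) or 800 bp (the others), which sets the smallest step of a value. A list that covers more of the genome covers more promoters, so each list was also cut to equal covered length.

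Genes were 21887 protein-coding entries of RefSeq for GRCm38.p6, the assembly of mm10. Promoters reach 2 kb to each side of the 5′ end, by strand for 17492 genes. For the others, Trp63, Perp, Trim29 and Cdh1 among them, the gene end with H3K4me3 in at least 1 library was used, or both ends (Trp63). Covered percent was tested with limma 3.58.1 in R 4.3.3 (trend and robust settings), on all genes covered in at least 2 libraries, two-sided, with Benjamini-Hochberg adjustment at 0.05. Coverage was computed with Python 3.11.15. Interval and limma steps were tested on simulated data.

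The 10 genes and the lists were chosen with earlier results of these data known. Named genes were all 10, other listed epithelial genes with a call or among the 3 greatest differences without overlap in an active mark, and marker genes with a call. Others were named after their values were seen. Some genes that this rule or the search for similar patterns would name are not reported here.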

Additional observations from a re-analysis of the deposited data

How the results depend on the processing

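Window, promoter end, covered length, scale, filter and single libraries were varied. Cldn4 and Trim29 for H3K4me3 sat near the threshold: 0 genes of the 10 were called in the main setting, 2 with a region in at least 1 library, 2 over gene bodies, 1 with a window of 1 kb, 1 with the promoter end set by H3K4me3, and 0 to 2 when each library was left out, the 2 without PC replicate 1 or PC replicate 2. Genes with HC above PC for H3K4me3 went from 4 to 2 at 1 kb, where the Grhl3 difference was -3.33 points, and to 4 to 7 over left-out libraries, 7 without HC replicate 5. For H3K27ac the main count was 3 and left-out libraries gave 3 to 7, 7 without HC replicate 5. For H3K9ac it was 4 and they gave 4 to 5. Genes with HC below PC ranged 0 to 1 for H3K4me3 (without PC replicate 7) and H3K9ac (without PC replicate 3), and 0 to 2 for H3K27ac (without HC replicate 7). Without an HC library only 1 is left, so its groups part more easily. Shares over all genes are not given for counts with a library left out, in any mark. All genes shifted too: without HC replicate 5 their median difference was 1.67 points for H3K4me3 and 1.67 for H3K27ac. In the main setting these medians were -0.833 and -2.5.

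The Perp call for H3K27me3 was lost over gene bodies, at equal covered length and at 1 kb, each with 0 calls, and the body difference was 1.11 points. Left-out libraries gave 1 to 3 calls, 0 to 1 gene above and 1 to 2 below, the upper values without PC replicate 8. Genes below numbered 0 over bodies, 2 at equal covered length and 0 at 1 kb. For H3K36me3, genes above were 0 in the promoter window and 1 to 3 over left-out libraries (3 without HC replicate 7), and genes below were 0 at equal covered length. For H3K9me3, genes below were 0 at equal covered length and 1 to 3 over left-out libraries (3 without PC replicate 3). HC-only H3K27ac genes were 2 at a minimum of 400 bp. The cause of these changes was not tested.

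Over all genes, the main settings called 1 gene for H3K4me3, 1 for H3K9ac, 3 for H3K27ac, 204 for H3K27me3 and 0 for the others. A window of 1 kb gave 169, 268 and 180 calls for the first 3 marks, gene bodies 6, 0 and 5, and left-out libraries 0 to 14, 0 and 0, with 14 without PC replicate 2. For H3K4me3 a region in 1 library gave 3, the end set by H3K4me3 gave 2, and equal length and log2 gave 0. For H3K27ac equal length and log2 gave 0. For H3K9ac log2 and the replicate block gave 0. For H3K27me3, 176 genes were higher and 28 lower in HC in the main setting, 58 and 94 at equal covered length, 19 and 14 with a region in 1 library, 237 and 95 on the log2 scale, and 123 to 460 in all over left-out libraries, with 39 and 84 without HC replicate 2. H3K9me3 had 392 calls without PC replicate 6 and 117 on the log2 scale. Titles of PC and HC libraries share 2 replicate numbers for H3K9ac only. With the number as a replicate block, 0 of the 10 genes were called, as without it. The numbers come from different embryos and mark no stated pairing. No paired analysis was possible for the other 5 marks because they share fewer than 2 numbers. Of the other results compared, 160 counts and 133 gene differences kept their direction and their side of the threshold.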
